A study of Mus musculus with 8 samples.

Results

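The genes described here are 44 autosomal genes for subunits of neurotransmitter receptors: 23 for glutamate receptors, 10 for GABA-A receptors and 11 for nicotinic acetylcholine receptors. They were chosen by name, not by a measured value, though earlier results of these data were known when they were chosen. All 44 were found among the 21352 genes of the deposited files, of which 20368 lie on chromosomes 1 to 19. The study profiled mouse primordial germ cells, from which eggs and sperm descend, by CUT&RUN on small numbers of cells. In this assay an antibody tethers a nuclease to chromatin and the DNA cut free is sequenced, here with an antibody to the histone mark H3K27me3 or with IgG, which gives the untargeted background. Reads were counted per gene on each of 2 alleles, so each gene has a level and an allele share. The sources do not name an expression measurement, and none was used.

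All cells came from embryos labelled with the strain B6 x Cast, were taken from pooled embryos of 1 sex and were sorted by FACS. All carried an Xist knockout allele and Oct4-eGFP+/-, a fluorescent reporter of a gene active in germ cells. H3K27me3 was measured in females (Xist KO/+:Oct4-eGFP+/-) at E12.5 and at E11.5, where E stands for the embryonic day. IgG was measured in males (Xist KO/Y:Oct4-eGFP+/-) at E11.5 and in females (Xist KO/+:Oct4-eGFP+/-) at E12.5 and at E13.5. Each of these 5 groups had 1 library with a file, and the 3 samples labelled as second replicates of H3K27me3 were not analysed here. Differences between groups therefore have no replicate check, no p-value is given between conditions, and all intervals cover counting error only. The H3K27me3 libraries held 5020062 reads on chromosomes 1 to 19 at E12.5 and 2356356 at E11.5, against 1357583, 1515532 and 5705401 in IgG at E11.5, E12.5 and E13.5. The E11.5 pair differs in sex, and the IgG library at E13.5 has no H3K27me3 library of its own stage.

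H3K27me3 is placed by Polycomb repressive complex 2 and marks many developmental and lineage genes that a cell keeps silent, above all at promoters rich in CpG. Receptor subunit genes encode the ligand-gated channels and G protein-coupled receptors by which neurons answer glutamate, GABA and acetylcholine, and most are used in the nervous system or in muscle. Primordial germ cells at these stages are known for a broad rearrangement of chromatin, including loss of DNA methylation.

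The bases upstream of 4 member genes are shown because they stand for the patterns described below: Grin1 and Chrna3 had H3K27me3 above every IgG library, Gabra2 at E12.5 was at least 2-fold over IgG at E12.5 but not over IgG at E13.5, and Chrna7 lay below every one. In Chrna3 at E12.5 the margin over IgG at E12.5 was within counting error. Each is the RefSeq GRCm38.p6 window of 250 bases before the annotated gene start, 5′ to 3′ on the gene's own strand, with each CpG in capitals. All lie on the minus strand, that of Grin1 at chr2:25319188-25319437, that of Chrna3 at chr9:55026563-55026812, that of Gabra2 at chr5:71095850-71096099 and that of Chrna7 at chr7:63212527-63212776.
Grin1: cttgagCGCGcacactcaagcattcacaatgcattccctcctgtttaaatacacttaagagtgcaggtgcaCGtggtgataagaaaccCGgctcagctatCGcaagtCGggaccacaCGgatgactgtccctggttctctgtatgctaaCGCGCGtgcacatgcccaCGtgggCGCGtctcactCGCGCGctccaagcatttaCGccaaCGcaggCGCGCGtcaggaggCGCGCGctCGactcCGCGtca
Chrna3: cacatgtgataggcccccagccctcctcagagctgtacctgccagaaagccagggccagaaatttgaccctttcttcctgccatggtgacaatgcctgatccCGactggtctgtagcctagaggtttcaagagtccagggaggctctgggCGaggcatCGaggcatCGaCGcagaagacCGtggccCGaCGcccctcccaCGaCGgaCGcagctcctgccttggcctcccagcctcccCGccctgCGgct
Gabra2: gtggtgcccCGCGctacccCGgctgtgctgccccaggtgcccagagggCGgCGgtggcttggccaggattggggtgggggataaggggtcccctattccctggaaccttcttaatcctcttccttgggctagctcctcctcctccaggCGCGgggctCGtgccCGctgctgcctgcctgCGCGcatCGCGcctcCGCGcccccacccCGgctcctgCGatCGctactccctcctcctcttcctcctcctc
Chrna7: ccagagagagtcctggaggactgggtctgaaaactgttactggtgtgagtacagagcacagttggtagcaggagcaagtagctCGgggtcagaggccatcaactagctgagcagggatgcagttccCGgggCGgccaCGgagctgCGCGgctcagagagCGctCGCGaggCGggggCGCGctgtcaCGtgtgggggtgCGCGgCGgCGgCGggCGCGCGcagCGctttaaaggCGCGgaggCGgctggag
The motif searched was CG, which reads the same on both strands. The windows held 27 CpG in Grin1, 13 in Chrna3, 18 in Gabra2 and 25 in Chrna7, against a median of 6 over all 32850 windows of the table. As many CpG or more were found in 8.56% of all windows for Grin1, 31.5% for Chrna3, 21.7% for Gabra2 and 10.7% for Chrna7. The Chrna7 window was thus close to that of Grin1 in its count of CpG. A window was found for 33 of the 44 members (75%), which is under the 80% needed, so the relation between CpG and level was void and is not given.

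Across the receptor genes, H3K27me3 was spread over a wide range, and a minority stood clearly above background. At E12.5, 12 of 44 members were at least 2-fold over IgG of the same stage and sex, beside 15.2% of the 16526 genes tested on chromosomes 1 to 19, and none was at least 2-fold lower, beside 29.5% of all genes. Over IgG at E13.5, though, 2 members (Gria4 at -1.33 and Chrna7 at -1.36 on the log2 scale) were at least 2-fold lower at E12.5, beside 24.2% of 17455 genes. At E11.5, 10 of 44 were at least 2-fold over IgG, beside 17.2% of 15050 genes, and 2 (Gabra6 and Chrna7) were at least 2-fold lower, beside 29.7%. The members' median log2 ratio over IgG was 0.57 at E12.5 and 0.37 at E11.5, where that of all genes was -0.54 at E12.5 and -0.49 at E11.5. Ratios here are of CPM, a gene's reads scaled to 1000000 reads on chromosomes 1 to 19, with 1 CPM added before the log2, for genes whose libraries together held 20 reads or more. All 44 members passed that minimum at both stages. The calls depended on the scale. With edgeR's TMM factors, which set the median of all genes near 0 (-0.04 at E12.5 and -0.06 at E11.5), 22 members were at least 2-fold higher and 0 lower at E12.5 (24.9% of all genes higher), and 16 higher and 0 lower at E11.5 (23.8%). On that scale the E12.5 ratios of Gria1, Gria4, Grik5, Grin2a, Grm2, Grm4, Gabrr1 and Chrna1 were above 0, those of Chrna7 (-0.46) and Chrna9 (-0.07) were still below it, and DESeq2's size factors gave the same signs. In bulk samples, fewer cells that carry the mark and less of the mark per cell cannot be told apart.

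The set shared by both stages had 6 members: Grik3, Grin1, Grin2c, Chrna4, Chrna5 and Chrnb3. Of all 15025 genes tested at both stages, 1781 were at least 2-fold over IgG at both. The count of members is near that share of all genes.

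**Figure D1:**
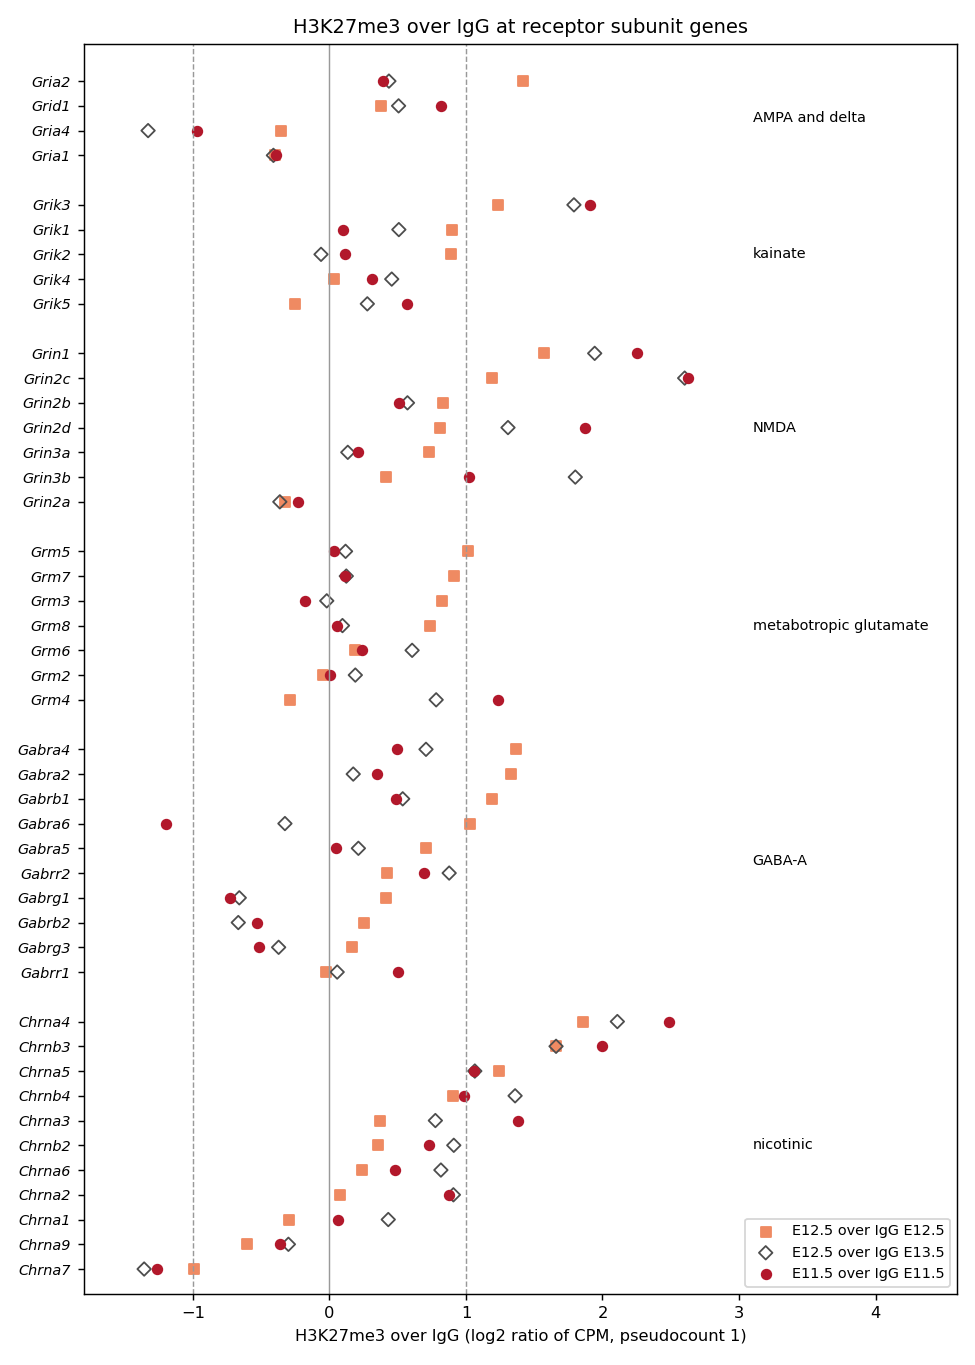
Log2 ratio of H3K27me3 over IgG for each of the 44 receptor genes, by family, with E12.5 over IgG E12.5, E12.5 over IgG E13.5 and E11.5 over IgG E11.5 (the IgG E11.5 library is male). Chrna4, Grin1, Grik3, Grin2c, Chrnb3 and Chrna5 lie at or beyond 1 in all 3 ratios, and Chrna7 is the lowest nicotinic gene in each.

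Levels below are densities in RPKM, that is CPM divided by the deposited gene length in kilobases. Over all genes together this density was the same in each library, near 1 RPKM, by its construction. Only reads that cover a difference between the strains have an allele, and the number of such positions in a gene is not given, so densities compare libraries for 1 gene more firmly than genes with each other. Fold changes below are ratios of CPM without the added 1.

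The NMDA receptor genes held the widest range of the glutamate families, with 2 of 7 at least 2-fold over IgG at E12.5 and 4 of 7 at E11.5, at median log2 ratios of 0.81 at E12.5 and 1.02 at E11.5. Grin1 encodes the subunit that every NMDA receptor needs (chr2:25291177-25319187, GRCm38.p6); its upstream window is printed above. Its density was 4.84 at E12.5 and 6.77 at E11.5 in H3K27me3, against 1.39, 1.60 and 1.23 in IgG at E11.5, E12.5 and E13.5. Both H3K27me3 values lay above all 3 IgG values, at 3.02-fold (95% interval 2.35 to 3.94) at E12.5 and 4.86-fold (95% interval 3.65 to 6.59) at E11.5. Grin2c encodes a glutamate-binding subunit best known from the cerebellum (chr11:115249169-115267297). Its density was 6.40 at E12.5 and 9.09 at E11.5 in H3K27me3, against 1.43, 2.77 and 1.01 in IgG at E11.5, E12.5 and E13.5. That was the highest H3K27me3 density of any member in either library, but the IgG value at E12.5 was also the highest of the IgG values of Grin2c, and H3K27me3 over IgG was 2.31-fold (95% interval 1.81 to 2.97) at E12.5 and 6.37-fold (95% interval 4.50 to 9.28) at E11.5.

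Grin2d, a glutamate-binding subunit of early neural development, had a density of 2.73 at E12.5 and 3.71 at E11.5 in H3K27me3, against 0.998, 1.55 and 1.09 in IgG at E11.5, E12.5 and E13.5. Its H3K27me3 values exceeded every IgG value, although the log2 ratio at E12.5, 0.81, stopped short of 1, beside 1.87 at E11.5. Grin2b, the main glutamate-binding subunit of the young forebrain, had 1.77 at E12.5 and 1.60 at E11.5 in H3K27me3, against 1.12, 0.992 and 1.19 in IgG at E11.5, E12.5 and E13.5. The order of H3K27me3 above IgG held in all libraries, at log2 ratios of 0.83 at E12.5 and 0.51 at E11.5. Grin2a, the subunit that joins Grin2b later in life, was the lowest of the family by the log2 ratio over IgG at E12.5 (-0.33), with 0.897 at E12.5 and 1.06 at E11.5 in H3K27me3, against 1.25, 1.13 and 1.16 in IgG at E11.5, E12.5 and E13.5. Its H3K27me3 values lay below all its IgG values on this scale though not with TMM factors, at 0.796-fold (95% interval 0.731 to 0.869) at E12.5 and 0.851-fold (95% interval 0.774 to 0.937) at E11.5. Grin3a and Grin3b encode glycine-binding subunits, and Grin3a was at log2 ratios of 0.73 at E12.5 and 0.21 at E11.5. Grin3b had few reads, 37 and 20 reads in H3K27me3 at E12.5 and E11.5, against 5, 8 and 8 in IgG at E11.5, E12.5 and E13.5, and its log2 ratio was 0.41 at E12.5 and 1.02 at E11.5.

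Among the 5 kainate receptor genes, 1 (Grik3) was at least 2-fold over IgG at both stages and the other 4 at neither. Grik3 encodes a subunit that can form channels by itself (chr4:125490259-125714173). Its density was 4.41 at E12.5 and 6.09 at E11.5 in H3K27me3, against 1.62, 1.87 and 1.27 in IgG at E11.5, E12.5 and E13.5. All IgG values were lower by a wide margin, at 2.36-fold (95% interval 2.17 to 2.57) at E12.5 and 3.76-fold (95% interval 3.42 to 4.15) at E11.5. At 224 kb, Grik3 was the only member over 200 kb to reach 2-fold at E11.5. Grik1, another subunit able to form channels alone, had 1.40 at E12.5 and 1.10 at E11.5 in H3K27me3, against 1.03, 0.751 and 0.983 in IgG at E11.5, E12.5 and E13.5. Grik2, of the same kind, had 0.894 at E12.5 and 0.798 at E11.5 in H3K27me3, against 0.738, 0.481 and 0.932 in IgG at E11.5, E12.5 and E13.5. For both, H3K27me3 at E12.5 was above IgG at E12.5, at log2 ratios of 0.90 for Grik1 and 0.89 for Grik2, while the Grik2 values at E12.5 and E11.5 lay below IgG at E13.5. Grik4 and Grik5 encode the high-affinity subunits that work only together with the others. Grik5 was the lowest of the family by the log2 ratio over IgG at E12.5, with 1.68 at E12.5 and 2.08 at E11.5 in H3K27me3, against 1.40, 2.01 and 1.39 in IgG at E11.5, E12.5 and E13.5. Grik4 was at log2 ratios of 0.03 at E12.5 and 0.31 at E11.5. The Grik5 groups overlapped, and the log2 ratio was -0.25 at E12.5 and 0.57 at E11.5.

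The AMPA and delta receptor genes are long, between 121 and 763 kb, and 1 of 4 reached 2-fold over IgG at E12.5 and none at E11.5. Gria2, whose subunit makes AMPA receptors nearly impermeable to calcium, had 1.28 at E12.5 and 1.08 at E11.5 in H3K27me3, against 0.819, 0.473 and 0.943 in IgG at E11.5, E12.5 and E13.5. H3K27me3 lay above every IgG library by a small margin, and the fold of 2.70-fold (95% interval 2.16 to 3.41) at E12.5 rested on a low value in IgG at E12.5, since over IgG at E13.5 it was 1.36-fold (95% interval 1.22 to 1.51). Gria4, an AMPA subunit, had 0.378 at E12.5 and 0.366 at E11.5 in H3K27me3, against 0.720, 0.483 and 0.952 in IgG at E11.5, E12.5 and E13.5, which put both H3K27me3 values below all IgG values on this scale. With TMM factors the log2 ratio of Gria4 over IgG of the same stage was 0.19 at E12.5 and -0.52 at E11.5. Gria1, the AMPA subunit best known from synaptic plasticity, was also below IgG on this scale though not with TMM factors, at 0.855 at E12.5 and 0.807 at E11.5 in H3K27me3, against 1.06, 1.13 and 1.14 in IgG at E11.5, E12.5 and E13.5. Grid1 encodes the delta receptor GluD1, a synaptic adhesion protein of the same family (chr14:34820003-35583387). With 1.38 at E12.5 and 1.63 at E11.5 in H3K27me3, against 0.924, 1.06 and 0.971 in IgG at E11.5, E12.5 and E13.5, Grid1 was above IgG in both libraries but under 2-fold, at log2 ratios of 0.38 at E12.5 and 0.82 at E11.5.

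Metabotropic glutamate receptors signal through G proteins, and 1 of their 7 genes was at least 2-fold over IgG at each stage (Grm5 at E12.5 and Grm4 at E11.5). Their median log2 ratio was 0.73 at E12.5 and 0.06 at E11.5. Grm5, the group I receptor coupled to calcium release, had 0.894 at E12.5 and 0.715 at E11.5 in H3K27me3, against 0.700, 0.442 and 0.823 in IgG at E11.5, E12.5 and E13.5. Grm7, a presynaptic group III receptor, had 1.13 at E12.5 and 0.931 at E11.5 in H3K27me3, against 0.860, 0.601 and 1.04 in IgG at E11.5, E12.5 and E13.5. Grm3, a group II receptor, had 0.815 at E12.5 and 0.691 at E11.5 in H3K27me3, against 0.781, 0.457 and 0.826 in IgG at E11.5, E12.5 and E13.5. In all 3 genes H3K27me3 at E12.5 exceeded IgG at E12.5 and lay close to IgG at E13.5, at log2 ratios of 0.12, 0.12 and -0.02. Grm4, a group III receptor of the cerebellum, was the lowest of the family by the log2 ratio over IgG at E12.5 (-0.29) although it passed 2-fold at E11.5 (1.24), with 1.52 at E12.5 and 2.63 at E11.5 in H3K27me3, against 1.11, 1.86 and 0.878 in IgG at E11.5, E12.5 and E13.5. The Grm4 groups overlapped, and at E12.5 the IgG value was the higher one. Grm2, Grm6 and Grm8 stayed under 2-fold, at log2 ratios of -0.05, 0.18 and 0.73 at E12.5 and 0.00, 0.24 and 0.06 at E11.5.

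None of the 10 GABA-A receptor genes reached 2-fold over IgG at E11.5, and 4 did so at E12.5. Gabra4, Gabra2 and Gabrb1 lie in a cluster on chromosome 5 with Gabrg1, and encode alpha, beta and gamma subunits of the chloride channel. Gabra4 had 1.57 at E12.5 and 1.33 at E11.5 in H3K27me3, against 0.940, 0.604 and 0.960 in IgG at E11.5, E12.5 and E13.5. Gabra2 had 1.15 at E12.5 and 1.01 at E11.5 in H3K27me3, against 0.788, 0.453 and 1.02 in IgG at E11.5, E12.5 and E13.5. Gabrb1 had 1.49 at E12.5 and 1.26 at E11.5 in H3K27me3, against 0.902, 0.652 and 1.03 in IgG at E11.5, E12.5 and E13.5. Each was above its IgG value at E12.5, at 2.61-fold (95% interval 2.07 to 3.33), 2.54-fold (95% interval 2.05 to 3.18) and 2.29-fold (95% interval 2.08 to 2.52), yet over IgG at E13.5 the folds were 1.64-fold (95% interval 1.46 to 1.85), 1.13-fold (95% interval 1.02 to 1.25) and 1.45-fold (95% interval 1.38 to 1.52). The annotated spans of Gabra4 and Gabrb1 overlap by their ends, and CUT&RUN reads carry no gene strand, so reads there cannot be told apart.

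Gabra6, an alpha subunit of cerebellar granule cells, is on chromosome 11 next to Gabrb2. It had 39 and 10 reads in H3K27me3 at E12.5 and E11.5, against 15, 5 and 57 in IgG at E11.5, E12.5 and E13.5. These are among the lowest counts of the members, and the log2 ratio at E12.5 was 1.03 over IgG at E12.5 but -0.33 over IgG at E13.5. At E11.5 the log2 ratio of Gabra6 was -1.20. Gabrr1, a rho subunit of the retina, was the lowest of the family by the log2 ratio over IgG at E12.5 (-0.02), with 1.61 at E12.5 and 1.86 at E11.5 in H3K27me3, against 1.30, 1.64 and 1.55 in IgG at E11.5, E12.5 and E13.5, and its groups overlapped. Gabra5, an alpha subunit of the hippocampus, had the lowest density of all members in each library, between 0.135 and 0.228, and a log2 ratio of 0.71 at E12.5. The remaining Gabrb2, Gabrg1, Gabrg3 and Gabrr2 stayed under 2-fold, at log2 ratios of 0.26, 0.41, 0.16 and 0.42 at E12.5 and -0.53, -0.73, -0.52 and 0.69 at E11.5.

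The nicotinic genes held the highest ratio at E12.5 and also the lowest. Chrna4 encodes the alpha subunit of the main nicotinic receptor of the brain, joined there by Chrnb2 (chr2:181022311-181043579). Its density was 5.99 at E12.5 and 7.89 at E11.5 in H3K27me3, against 1.38, 1.63 and 1.36 in IgG at E11.5, E12.5 and E13.5. The H3K27me3 values were several times those of each IgG library, at 3.69-fold (95% interval 2.84 to 4.86) at E12.5 and 5.74-fold (95% interval 4.25 to 7.92) at E11.5. Chrnb2 itself was above every IgG library but under 2-fold, at log2 ratios of 0.36 at E12.5 and 0.73 at E11.5. Its fold at E12.5, 1.29-fold (95% interval 0.891 to 1.93), has an interval that includes no difference. Chrnb3, a subunit of midbrain and visual receptors (chr8:27368711-27399730), had 3.89 at E12.5 and 3.98 at E11.5 in H3K27me3, against 0.974, 1.21 and 1.21 in IgG at E11.5, E12.5 and E13.5. It was 3.21-fold (95% interval 2.44 to 4.29) over IgG at E12.5 and 4.09-fold (95% interval 2.94 to 5.82) at E11.5, and the groups were far apart. Its neighbour Chrna6, which forms receptors with it, lay at log2 ratios of 0.24 at E12.5 and 0.48 at E11.5.

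Chrna5, Chrna3 and Chrnb4 form a cluster on chromosome 9 and encode subunits of receptors in autonomic ganglia. Chrna5, an accessory subunit (chr9:54980827-55011420), had 2.66 at E12.5 and 2.95 at E11.5 in H3K27me3, against 1.40, 1.10 and 1.25 in IgG at E11.5, E12.5 and E13.5. It was above all IgG libraries, at 2.41-fold (95% interval 1.76 to 3.36) at E12.5 and 2.11-fold (95% interval 1.54 to 2.94) at E11.5. Chrna3 (chr9:55010117-55026562) had 2.51 at E12.5 and 4.18 at E11.5 in H3K27me3, against 1.57, 1.93 and 1.44 in IgG at E11.5, E12.5 and E13.5, with log2 ratios of 0.37 at E12.5 and 1.38 at E11.5. The ends of Chrna5 and Chrna3 overlap, so reads in the overlap are uncertain between them. Chrnb4 (chr9:55028154-55048953) had 3.46 at E12.5 and 3.93 at E11.5 in H3K27me3, against 1.96, 1.82 and 1.32 in IgG at E11.5, E12.5 and E13.5, with log2 ratios of 0.91 at E12.5 and 0.98 at E11.5, just short of 2-fold at both stages. All 3 genes had H3K27me3 above every IgG library at both stages. For Chrna3 at E12.5, though, the fold over IgG at E12.5 was 1.30-fold (95% interval 0.947 to 1.82), an interval that includes no difference. The nearest gene beyond the cluster on the Chrnb4 side, Ube2q2, lay below IgG, at log2 ratios of -1.14 at E12.5 and -2.02 at E11.5.

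Chrna7, whose subunit forms receptors by itself (chr7:63098692-63212526), was the lowest member by the log2 ratio over IgG at E12.5. Its density was 0.450 at E12.5 and 0.429 at E11.5 in H3K27me3, against 1.04, 0.904 and 1.17 in IgG at E11.5, E12.5 and E13.5. Each H3K27me3 value was below each IgG value, at 0.497-fold (95% interval 0.406 to 0.611) at E12.5 and 0.411-fold (95% interval 0.321 to 0.526) at E11.5. With the added 1 CPM its log2 ratios were -0.99 at E12.5, just short of 2-fold lower, and -1.26 at E11.5, below the median of all genes at both stages. Of the other nicotinic genes, Chrna2 was at 0.08 at E12.5 and 0.87 at E11.5, Chrna1, the muscle subunit, at -0.29 at E12.5 and 0.06 at E11.5, and Chrna9, known from hair cells of the ear, at -0.60 at E12.5 and -0.36 at E11.5.

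**Figure D2:**
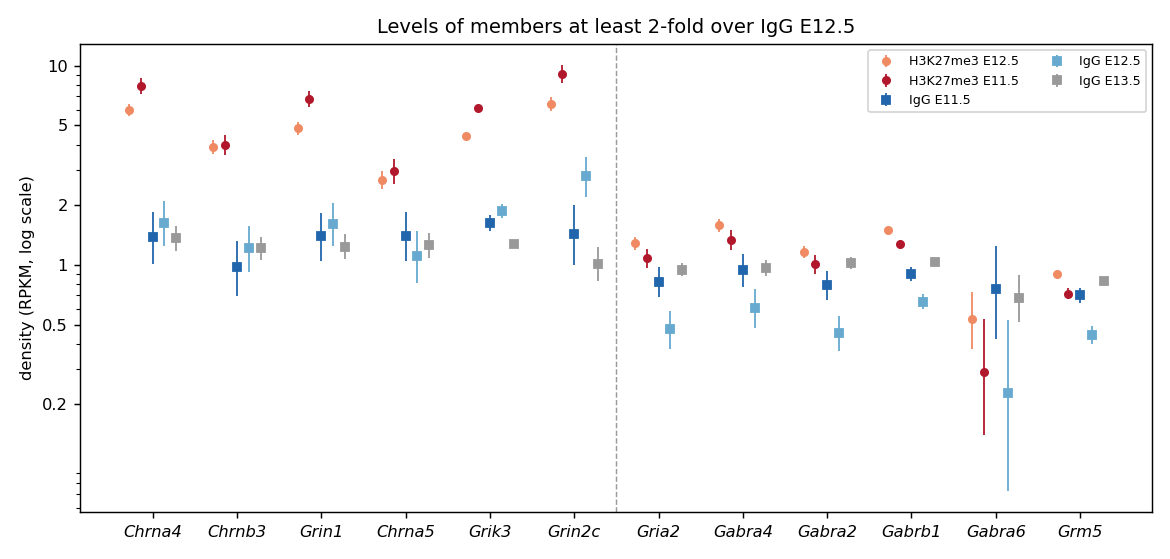
Density in RPKM (log scale) in each library for the 12 members at least 2-fold over IgG at E12.5, with 95% Poisson intervals of the counts. Left of the dashed line are the 6 genes also at least 2-fold over IgG E13.5, where both H3K27me3 libraries lie above all IgG libraries. Right of it are the 6 that were not, where IgG E12.5 is the lowest library. The IgG E11.5 library is male.

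The choice of IgG library divided the members called at E12.5 into sets of equal size. The same split was not computed over all genes, so it is not shown to be particular to the members. Over IgG at E13.5, 9 of 44 members were at least 2-fold higher, beside 15.9% of 17455 genes, and 6 of these were called over IgG at E12.5 too: Grik3, Grin1, Grin2c, Chrna4, Chrna5 and Chrnb3. The 6 that were called over IgG at E12.5 alone were Gria2, Grm5, Gabra2, Gabra4, Gabra6 and Gabrb1, as the plot of levels of called genes shows. In all of them the IgG density at E12.5 was below that of IgG at E11.5 and at E13.5. Between the IgG libraries themselves, E13.5 over E12.5, 3 of the 43 members tested (Gabra2, Gabra6 and Gabrg1) were at least 2-fold higher, beside 3.72% of 16775 genes, and 2 (Grin2c and Grm4) were at least 2-fold lower, beside 5.62%. The part of this IgG difference in the E12.5 ratios was not tested. Over each of the 3 IgG libraries, 5 members were at least 2-fold higher at E12.5 (Grik3, Grin1, Grin2c, Chrna4 and Chrnb3), beside 11.1% of 16274 genes. At E11.5 there were 8, which added Grin2d, Chrna3 and Chrna5, beside 13.1% of 14842 genes. The count at E12.5 is near the share of all genes. The ratio of E12.5 to the highest IgG library had medians of 0.15 for the members and -0.76 for all genes.

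Gene length moved with the ratios. Across the 44 members the Spearman correlation of length with the log2 ratio was -0.49 for E12.5 over IgG E13.5 and -0.36 for E11.5 over IgG E11.5, but 0.04 for E12.5 over IgG E12.5. Over all genes tested the same correlations were -0.31, -0.31 and -0.16. The ratio of IgG E13.5 over IgG E12.5, which holds no H3K27me3, correlated with length at 0.51 over 43 members and 0.26 over 16775 genes. The points share libraries and differ in depth, and no p is given. Of the 19 members under 50 kb, 6 were at least 2-fold over IgG at E12.5 and 8 at E11.5, where 17.8% (E12.5) and 21.3% (E11.5) of all genes of that length were. Of the 16 members over 200 kb, 3 were so at E12.5 and 1 at E11.5, where 7.85% (E12.5) and 4.09% (E11.5) of all genes of that length were.

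**Figure D3:**
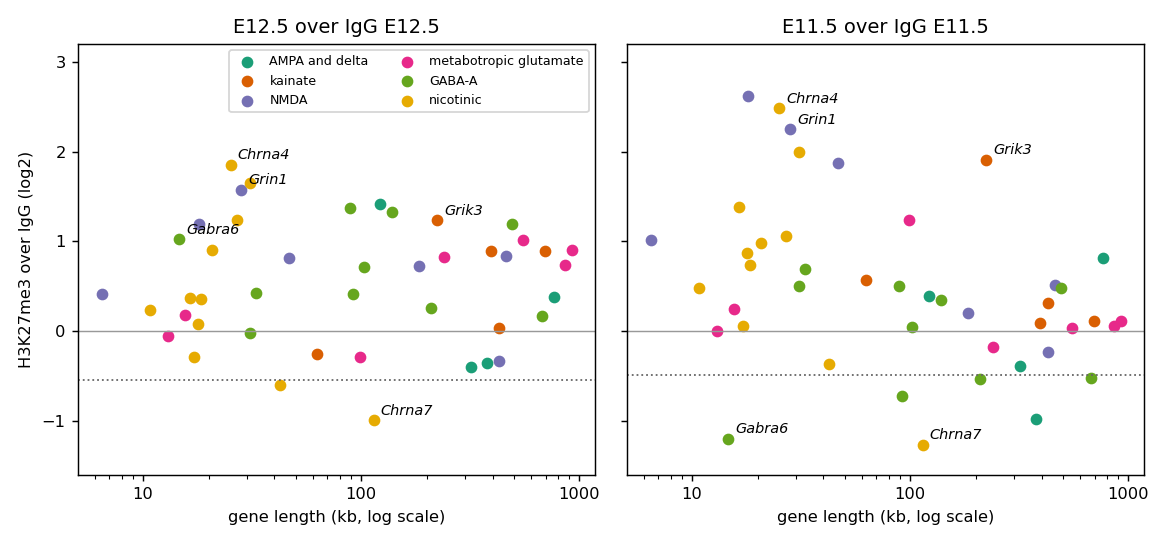
Log2 ratio of H3K27me3 over IgG of the same stage against gene length in kb (log scale), 1 point per member, coloured by family, E12.5 left and E11.5 right. The dotted line is the median of all genes tested on chromosomes 1 to 19 (-0.54 at E12.5, -0.49 at E11.5), and most members lie above it; the highest ratios at E11.5 are in genes under 50 kb, apart from Grik3.

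Between the stages no member was 2-fold higher or 2-fold lower in H3K27me3 at E12.5 over E11.5, beside 0.756% and 0.787% of 16526 genes. Of the 44, 25 had a higher CPM at E12.5 and 19 had a lower one, and the median log2 ratio was 0.07, against 0.01 over all genes. The highest log2 ratio of E12.5 over E11.5 was that of Gabra6, 0.74, on few reads. The lowest were those of Grm4, -0.79, and Chrna3, -0.72. The genes with the most H3K27me3 were lower at E12.5: Grin2c at 0.705-fold (95% interval 0.619 to 0.803), Grin1 at 0.715-fold (95% interval 0.634 to 0.807), Grik3 at 0.724-fold (95% interval 0.692 to 0.757) and Chrna4 at 0.759-fold (95% interval 0.676 to 0.854). Chrnb3 was the exception among them, at 0.978-fold (95% interval 0.849 to 1.13). Lower values at E12.5 were not particular to the members. The log2 ratio of E12.5 over E11.5 had a median of -0.13 (range -0.76 to 0.63) in Hox genes. In marker genes of the somatic gonad it had a median of -0.18 (range -0.77 to -0.08). Both sets are described below.

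The allele share is the percent of a gene's reads that lie on the allele counted second in the files. Which strain that is, and which parent gave it, is not stated in the sources used here, so strain and parent of origin cannot be told apart. Over chromosomes 1 to 19 the share was 50.95% at E12.5 and 51.59% at E11.5 in H3K27me3, against 50.75%, 51.09% and 51.26% in IgG at E11.5, E12.5 and E13.5. By an exact two-sided binomial test of each gene's reads against these pooled shares, adjusted by Benjamini-Hochberg over all genes with at least 10 reads, 23 of 44 members were skewed in H3K27me3 at E12.5, beside 17.5% of genes, and 15 of 44 at E11.5, beside 11.7%. In IgG, 3 of 43 were skewed at E11.5 (3.66% of genes), 3 of 42 at E12.5 (3.46%) and 7 of 43 at E13.5 (7.87%). Members had more reads than most genes, with a median of 690 at E12.5 and 325 at E11.5 in H3K27me3, where genes with at least 10 reads had medians of 93 and 53, and a test on more reads detects smaller shifts. These tests compare reads of single libraries, not conditions.

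Both H3K27me3 libraries called 14 members, beside 9.36% of the 15297 genes tested in both, and of the 14, 8 lay toward the first allele (Gria2, Grid1, Grik1, Grin2a, Grin2d, Grm4, Grm6 and Gabrb1) and 6 toward the second (Grik3, Grik5, Grin2c, Grm3, Chrna3 and Chrnb4). A share can also depart from the pooled one in IgG, where the mark plays no part, so each gene was also compared with IgG of its stage by Fisher's exact test (two-sided). At E12.5, 7 of 42 members differed from IgG after Benjamini-Hochberg adjustment over all genes, beside 2.35% of 14586 genes: Grid1, Grik3, Grik5, Grin2a, Grin2b, Grm6 and Chrnb4. At E11.5, 4 of 43 did, beside 2.17% of 13489 genes: Grid1, Grin2a, Chrna3 and Chrnb4. Grid1, Grin2a and Chrnb4 were called at both stages, beside 0.935% of the 13159 genes tested at both.

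Grid1, the delta receptor gene, had the clearest shift toward the first allele. Its second-allele share was 27.6% (95% interval 26.4 to 28.8, 5289 reads) at E12.5 and 25.9% (95% interval 24.4 to 27.6, 2931 reads) at E11.5 in H3K27me3, against 45.6% (95% interval 42.4 to 48.8, 957 reads), 50.4% (95% interval 47.6 to 53.2, 1230 reads) and 49.6% (95% interval 48.1 to 51.1, 4229 reads) in IgG at E11.5, E12.5 and E13.5. The intervals of the H3K27me3 and IgG libraries did not overlap, and Fisher's exact test gave an adjusted p of 3.65e-47 at E12.5 and 6.66e-25 at E11.5. Relative to all reads on chromosomes 1 to 19, the first allele was 1.90-fold (1.74 to 2.07) over IgG at E12.5 and 2.4-fold (2.18 to 2.65) at E11.5. The second allele was 0.710-fold (0.646 to 0.781) at E12.5 and 1.0-fold (0.891 to 1.13) at E11.5. With TMM factors the folds of both alleles are raised by the same factor, so the order of the alleles is kept but their place relative to 1 depends on the scale, here and for the genes below. The nearest genes with at least 20 reads in the E12.5 pair, Wapl and Ccser2, had H3K27me3 shares of 44.9% and 54.9% at E12.5. Both lay below IgG, at log2 ratios of -0.96 and -1.17 at E12.5, so their shares do not show where the shift ends. Next beyond Wapl, Opn4 and Ldb3 had H3K27me3 shares of 49.0% and 40.5% at E12.5, against 51.9% and 55.5% in IgG at E12.5. Whether the shift extends to them was not tested.

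Chrnb4 had the largest shift toward the second allele. Its share was 83.5% (95% interval 79.3 to 87.2, 358 reads) at E12.5 and 87.4% (95% interval 81.9 to 91.8, 191 reads) at E11.5 in H3K27me3, against 50.9% (95% interval 37.1 to 64.7, 55 reads), 54.4% (95% interval 40.7 to 67.6, 57 reads) and 53.5% (95% interval 45.4 to 61.6, 155 reads) in IgG at E11.5, E12.5 and E13.5. Both H3K27me3 shares lay far outside the IgG intervals, with Fisher's exact adjusted p of 0.00045 at E12.5 and 1.15e-05 at E11.5. The second allele was 2.91-fold (2.01 to 4.36) over IgG at E12.5 and 3.44-fold (2.29 to 5.33) at E11.5, and the first was 0.685-fold (0.425 to 1.13) at E12.5 and 0.512-fold (0.283 to 0.922) at E11.5. Along the cluster the skew was smaller: Chrna3 had 65.7% at E12.5 and 63.6% at E11.5 in H3K27me3, against 28.6%, 56.2% and 48.1% in IgG at E11.5, E12.5 and E13.5. Chrna5, the farthest, had 55.7% at E12.5 and 48.7% at E11.5 in H3K27me3, against 51.0%, 40.0% and 44.8% in IgG at E11.5, E12.5 and E13.5, and was called in neither library. Beyond Chrnb4, Ube2q2 had 46.7% at E12.5 and 50% at E11.5 in H3K27me3, but it lay below IgG, so its share does not show where the skew ends. For Chrna3 the Fisher adjusted p was 0.812 at E12.5 and 0.0172 at E11.5, where IgG was low on 35 reads.

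Grin2a carried more first-allele reads, with a share of 39.0% at E12.5 and 37.5% at E11.5 in H3K27me3, against 48.7%, 49.6% and 49.3% in IgG at E11.5, E12.5 and E13.5. The IgG libraries stayed near 49%, and Fisher's exact adjusted p was 0.000147 at E12.5 and 0.00043 at E11.5. Here the first allele was 0.964-fold (0.857 to 1.09) over IgG at E12.5 and 1.04-fold (0.912 to 1.18) at E11.5, while the second was 0.626-fold (0.552 to 0.712) at E12.5 and 0.655-fold (0.566 to 0.758) at E11.5. Grm6, the receptor of retinal ON bipolar cells, had 28.8% at E12.5 and 24.2% at E11.5 in H3K27me3, against 56.7%, 60.0% and 47.2% in IgG at E11.5, E12.5 and E13.5. Its Fisher adjusted p was 0.0117 at E12.5 and 0.133 at E11.5, on 45 and 30 IgG reads. The first allele of Grm6 was 2.03-fold (1.23 to 3.54) over IgG at E12.5 and the second 0.548-fold (0.336 to 0.912).

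Grik5 lay toward the second allele, with 66.1% at E12.5 and 66.5% at E11.5 in H3K27me3, against 56.3%, 46.3% and 53.2% in IgG at E11.5, E12.5 and E13.5. The shift against IgG was called at E12.5 (Fisher's exact adjusted p = 0.000336) and not at E11.5 (0.521). Grik3, the most marked kainate gene, had a smaller shift on many reads, with 57.9% at E12.5 and 58.6% at E11.5 in H3K27me3, against 53.0%, 48.9% and 51.7% in IgG at E11.5, E12.5 and E13.5, and adjusted p of 0.00185 at E12.5 and 0.342 at E11.5. Grin2b differed from IgG at E12.5 (adjusted p = 0.0446), but there the IgG libraries stood on either side of H3K27me3, with 48.4% at E12.5 and 50.1% at E11.5 in H3K27me3, against 49.2%, 55.2% and 46.9% in IgG at E11.5, E12.5 and E13.5. That gene's share in H3K27me3 was close to 50% in both libraries.

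**Figure D4:**
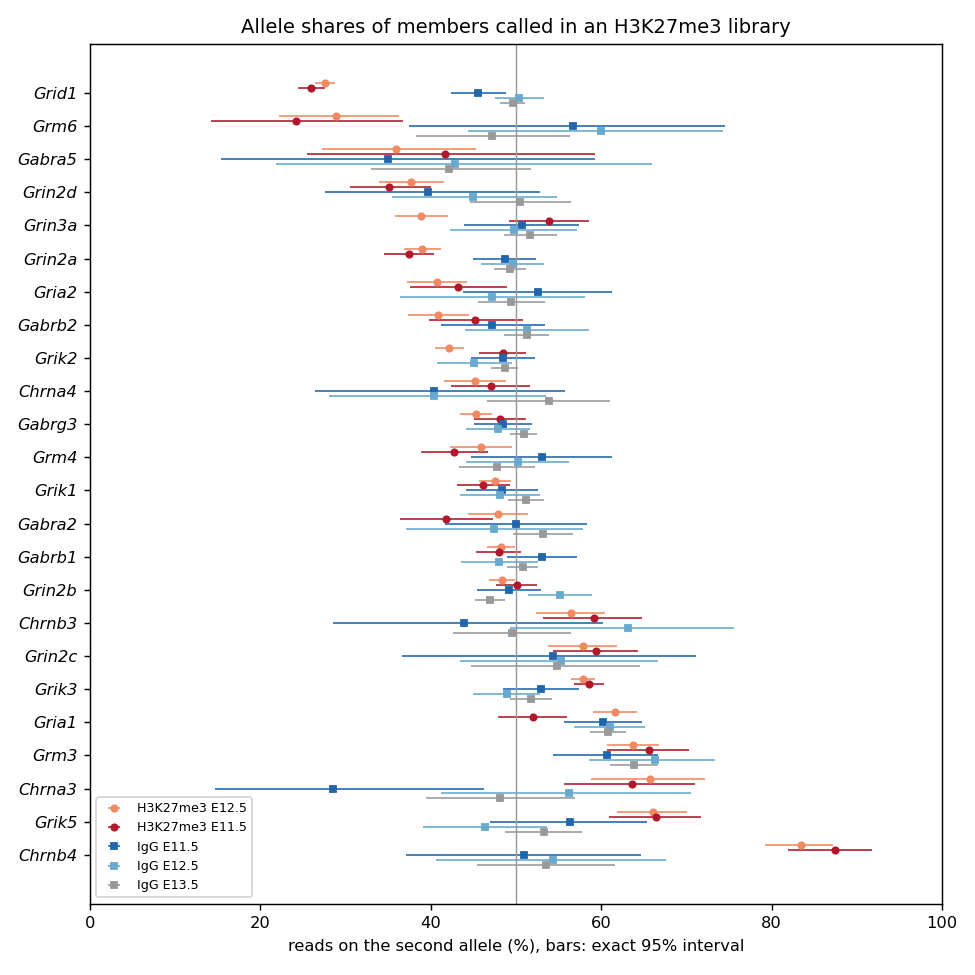
Second-allele share (percent of reads, with exact 95% binomial intervals) in each library for members whose share was called skewed in an H3K27me3 library. Grid1, Grm6 and Grin2a lie left of their IgG values and Chrnb4 lies far right of them in both H3K27me3 libraries, while Gria1 and Grm3 lie right of 50% in IgG too. The IgG E11.5 library is male.

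**Figure D5:**
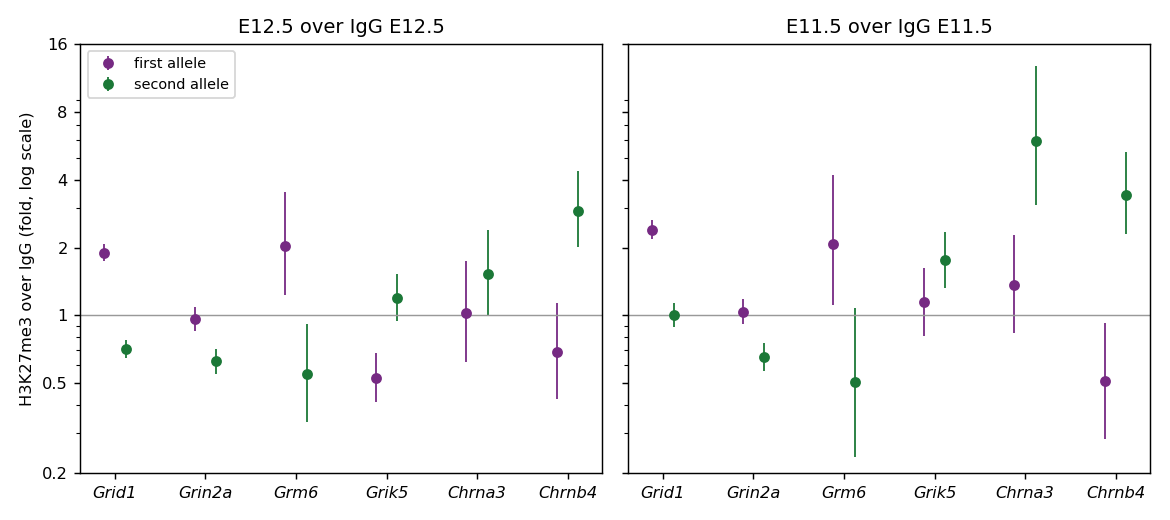
Fold of H3K27me3 over IgG of the same stage for each allele (log scale), from CPM of the reads of that allele on the scale of all reads of chromosomes 1 to 19, with 95% counting intervals, E12.5 left and E11.5 right. On this scale the first allele of Grid1 and Grm6 lies above 1 and the second lower, and in Chrnb4 the order is the reverse.

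Grm3, also called in both H3K27me3 libraries, had 63.8% at E12.5 and 65.6% at E11.5 in H3K27me3, against 60.6%, 66.3% and 63.9% in IgG at E11.5, E12.5 and E13.5. Grm3 thus leaned to the second allele with either antibody. Gria1 had 61.6% at E12.5 and 52.0% at E11.5 in H3K27me3, against 60.3%, 61.0% and 60.8% in IgG at E11.5, E12.5 and E13.5. Its H3K27me3 share at E11.5 was the one that stood apart. Grin2d had 37.7% at E12.5 and 35.1% at E11.5 in H3K27me3, against 39.7%, 45.0% and 50.5% in IgG at E11.5, E12.5 and E13.5. Gria2 had 40.7% at E12.5 and 43.2% at E11.5 in H3K27me3, against 52.6%, 47.1% and 49.5% in IgG at E11.5, E12.5 and E13.5. Grm4 had 45.9% at E12.5 and 42.7% at E11.5 in H3K27me3, against 53.0%, 50.2% and 47.8% in IgG at E11.5, E12.5 and E13.5. Gria2 and Grm4 were both below every IgG value in H3K27me3, though Fisher's exact test called neither against IgG of its stage. Grin2c had 57.8% at E12.5 and 59.4% at E11.5 in H3K27me3, against 54.3%, 55.3% and 54.8% in IgG at E11.5, E12.5 and E13.5. Grik1 had 47.5% at E12.5 and 46.1% at E11.5 in H3K27me3, against 48.4%, 48.1% and 51.2% in IgG at E11.5, E12.5 and E13.5. Gabrb1 had 48.2% at E12.5 and 48.0% at E11.5 in H3K27me3, against 53.1%, 48.0% and 50.8% in IgG at E11.5, E12.5 and E13.5. These 3 were called in both H3K27me3 libraries by the binomial test, but Fisher's exact test called none against IgG of its stage. Grin2c lay above all its IgG values and Grik1 below all of its own, while Gabrb1 at E12.5 lay between its IgG values.

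Of the remaining 8 called in 1 H3K27me3 library, Gabra2 was called at E11.5, with 47.9% at E12.5 and 41.8% at E11.5 in H3K27me3, against 50%, 47.4% and 53.2% in IgG at E11.5, E12.5 and E13.5. Grin3a, called at E12.5, had 38.9% at E12.5 and 53.9% at E11.5 in H3K27me3, against 50.7%, 49.7% and 51.7% in IgG at E11.5, E12.5 and E13.5. It was the E12.5 value that departed from the others in Grin3a. Grik2 had 42.2% at E12.5 and 48.4% at E11.5 in H3K27me3, against 48.5%, 45.1% and 48.6% in IgG at E11.5, E12.5 and E13.5. Chrnb3 had 56.4% at E12.5 and 59.1% at E11.5 in H3K27me3, against 43.9%, 63.2% and 49.5% in IgG at E11.5, E12.5 and E13.5. Chrna4 had 45.2% at E12.5 and 47.0% at E11.5 in H3K27me3, against 40.4%, 40.3% and 53.9% in IgG at E11.5, E12.5 and E13.5. The last of these, the most marked nicotinic gene, thus had H3K27me3 reads on both alleles. Gabrb2 had 40.9% at E12.5 and 45.2% at E11.5 in H3K27me3, against 47.2%, 51.3% and 51.2% in IgG at E11.5, E12.5 and E13.5. Gabrg3 had 45.3% at E12.5 and 48.1% at E11.5 in H3K27me3, against 48.5%, 47.9% and 50.9% in IgG at E11.5, E12.5 and E13.5. Gabra5 had 35.9% at E12.5 and 41.7% at E11.5 in H3K27me3, against 35.0%, 42.9% and 42.1% in IgG at E11.5, E12.5 and E13.5. These GABA-A genes leaned to the first allele at E12.5. The Gabra5 share was below 50% in every library, but outside H3K27me3 at E12.5 each interval covered 50%. Those shares rested on 36 reads in H3K27me3 at E11.5, and on 20, 21 and 114 reads in IgG at E11.5, E12.5 and E13.5. Between the H3K27me3 libraries the share differed in 3 of 44 members by Fisher's exact test, beside 0.53% of 15297 genes: Grin3a (adjusted p = 4.74e-05), Gria1 (0.0195) and Grik2 (0.0357).

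Other genes of the same signalling systems were read from a list of 64, of which 63 were in the files on chromosomes 1 to 19. At E12.5, 16 of the 58 tested were at least 2-fold over IgG and 5 at least 2-fold lower, with a median log2 ratio of 0.39, beside the 15.2% and 29.5% of all genes. At E11.5, 21 of 57 were higher and 8 lower, with a median of 0.27, beside 17.2% and 29.7%. The highest at E12.5 was Gabbr1, a subunit of the metabotropic GABA-B receptor, at 3.14 at E12.5 and 2.74 at E11.5. Slc32a1, the vesicular transporter of GABA, was at 2.37 at E12.5 and 3.0 at E11.5, and Shank1, a scaffold of excitatory synapses, at 2.36 at E12.5 and 3.43 at E11.5. These exceeded every member of the receptor set described here at E12.5. The lowest were the scaffold gene Shank2, at -1.30 at E12.5 and -0.83 at E11.5, Abat, which breaks down GABA, at -1.17 at E12.5 and -1.06 at E11.5, and Slc1a3, a glial glutamate transporter, at -1.15 at E12.5 and -1.24 at E11.5. Lrrtm1 and Lrrtm2, synaptic adhesion genes, are listed at 0 in all 5 libraries.

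Set beside Hox genes, a class known to carry H3K27me3, the receptor genes had much lower ratios over the whole gene. The Hox genes are far shorter, with a median length of 3.49 kb against 95.3 kb for the members. The part of length in this gap was not tested. Of the 39 genes of the Hox clusters A to D, 7 were listed at 0 in every library. All 32 tested at E12.5 and all 29 tested at E11.5 were at least 2-fold over IgG, with median log2 ratios of 2.84 at E12.5 and 3.07 at E11.5. Another class of neuronal membrane proteins was that of voltage-gated potassium and calcium channel genes, 37 in number, of which 11 of 36 tested at E12.5 and 12 of 36 at E11.5 were at least 2-fold higher, with medians of 0.58 at E12.5 and 0.84 at E11.5. Both sets are descriptions and were not tested against the receptor genes. The 5 genes on chromosomes 1 to 19 outside the set whose ratios at both stages lay nearest to the members' medians, by Euclidean distance over these 2 values, were Cdkl1, Slc38a1, Gm11487, Rubcnl and Capn8, at distances between 0.0124 and 0.0317.

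Genes listed here as germ cell markers lay mostly below IgG: of 9 tested at E12.5 and 5 at E11.5, 1 was at least 2-fold over IgG in each (Sox17), and the medians were -0.98 at E12.5 and -1.03 at E11.5. Whether Sox17 marks mouse germ cells at these stages was not checked. Housekeeping genes had medians of -1.14 at E12.5 and -1.46 at E11.5. All 7 somatic gonad markers tested were at least 2-fold higher, with medians of 2.03 at E12.5 and 2.5 at E11.5, and neuronal markers had 2 of 6 higher at E12.5 and 3 of 6 at E11.5, with medians of 0.78 at E12.5 and 0.87 at E11.5. Blood and endothelial markers had 1 of 5 higher at each stage, with medians of 0.77 at E12.5 and -0.03 at E11.5. H3K27me3 over a gene does not measure its RNA, so the identity of the sorted cells was not tested by these values.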

How the data were processed

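The deposited files give, per gene, a length, whole-number counts of reads on each of 2 alleles, and the fraction of reads on the second allele, 1 file per library. These counts are the authors' own and are not normalised, per the file contents. The fraction the authors deposited was recomputed from the 2 counts and is printed here as a percent. The submitters' processing notes name the build mm10, Bowtie2 2.4.2, featureCounts and GATK, and also Trim Galore 0.6.6, cutadapt 4.1, SAMtools 1.11, MACS2 2.2.7.1, FastQC 0.11.9, deepTools 3.5.1 and MultiQC 1.13. Settings, duplicate reads, reads shared by overlapping genes and allele assignment are left undescribed there. PCR duplicates left among the reads would make counting intervals too narrow, and a gene's level holds only reads that cover a strain difference.

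Python 3.11.15 (numpy 2.4.6, pandas 2.3.3, scipy 1.17.1) was used. Both alleles were summed and scaled to CPM (1000000 reads on chromosomes 1 to 19). Log2 ratios used a pseudocount of 1 CPM and at least 20 reads in the pair, which understates ratios of low genes, and "called" means at least 2-fold. Folds of reads carry 95% intervals from the exact binomial split of reads between the libraries. Allele shares needed at least 10 reads and carry exact Clopper-Pearson intervals. Binomial and Fisher's exact tests (two-sided) were adjusted by Benjamini-Hochberg over all genes of chromosomes 1 to 19, at a threshold of 0.05. Alternative scalings came from edgeR 4.0.16 and DESeq2 1.42.0 in R 4.3.3, which were used for size factors only. The calculations were tested on simulated data.

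Values are given for the 3 highest and the lowest member of each of 6 families by the E12.5 ratio, and for each member called on its share in an H3K27me3 library. Other members are given by counts, or named where a family or cluster is described. The members, lists and rules were chosen with earlier results of these data known. Coordinates and promoter windows are those of RefSeq GRCm38.p6, the assembly mm10 names, matched by symbol. The deposited length lay within 5% of the RefSeq span for 34 of 44 members.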

Additional observations from a re-analysis of the deposited data

Results flagged for a closer look

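In 9 members the H3K27me3 ratio over IgG of the same stage had opposite signs at E12.5 and E11.5. Over all genes, 13.6% of the 15025 tested at both stages had opposite signs. With edgeR's TMM factors 5 of the 9 (Grik5, Grm3, Grm4, Gabrr1 and Chrna1) had the same sign at both stages. On that scale 6 members had opposite signs, with Gria4 and Chrna9 now among them, beside 14.2% of genes. That count is near the share of all genes, and DESeq2's size factors gave the same members and percent. The difference was not tested, since each value rests on 1 library of each kind. Gabra6 was at 1.03 on the log2 scale at E12.5 and -1.20 at E11.5, on few reads. Grm4 was at -0.29 at E12.5 and 1.24 at E11.5. Grm3 was at 0.83 at E12.5 and -0.18 at E11.5. Gabrg1 was at 0.41 at E12.5 and -0.73 at E11.5. Grik5 was at -0.25 at E12.5 and 0.57 at E11.5. Gabrb2 was at 0.26 at E12.5 and -0.53 at E11.5, and Gabrg3 at 0.16 at E12.5 and -0.52 at E11.5. Gabrr1 was at -0.02 at E12.5 and 0.50 at E11.5, and Chrna1 at -0.29 at E12.5 and 0.06 at E11.5. For all 9, the IgG density itself differed between E12.5 and E11.5 in the direction opposite to the sign of the E12.5 ratio, and its part in the result was not tested.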

How the results depend on the processing

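With 1 library in each group no replicate could be left out, and depth limits the short genes most: 1 read was 0.199 CPM at E12.5 and 0.424 at E11.5 in H3K27me3, against 0.737, 0.660 and 0.175 in IgG at E11.5, E12.5 and E13.5. No paired analysis was possible because each group compared had 1 library with a file. The members at least 2-fold over IgG at E11.5 were 10, and became 16 with edgeR's TMM factors and 18 with DESeq2's size factors. At E12.5 they were 12, and became 22 with TMM factors, 22 with DESeq2's size factors and 22 at a threshold of 1.5-fold. Both factors add a constant close to 0.5 to nearly all log2 ratios over IgG, which lifts the members with all other genes. Between the stages 0 members changed 2-fold and 3 changed 1.5-fold, beside 10.1% of all genes at 1.5-fold. With IgG at E13.5 as the control, an alternative chosen after seeing the data, 15 members differed from IgG in allele share at E12.5 (6.13% of all genes), against 7 (2.35%) with IgG at E12.5, a library with fewer reads. The E12.5 ratio of Gabra6 was -0.33 with IgG at E13.5 and -0.19 with the 3 IgG libraries summed, so its sign turned. With a pseudocount of 0.5 or no minimum of reads the counts of higher calls were as reported, though Chrna7 was at least 2-fold lower at E12.5 with a pseudocount of 0.5. With a minimum of 50 reads they were 11 at E12.5 and 9 at E11.5. With IgG at E13.5 or the 3 IgG libraries summed they were 9 at E12.5 and 11 at E11.5, and 6 of the 12 members called at E12.5 were shared with the reported set. Both these controls gave 2 members at least 2-fold lower at E12.5, against 0 with IgG at E12.5. Against an expected share of 50%, 18 members were skewed at E12.5 and 14 at E11.5, and a minimum of 30 reads left the share counts at 23 and 15, and at 7 and 4 against IgG.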
